A study of Arabidopsis thaliana with 4 samples.

Results

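The genes described here are the neighbours of AT5G46070 on chromosome 5 of Arabidopsis thaliana. They are all 156 genes of the deposited count file that lie wholly between bases 18400000 and 18950000 of TAIR10, of 32833 genes in all, leaving out AT5G46070 itself and AT5G45990. The window was chosen from measured values. AT5G46070, which the annotation calls a guanylate-binding family protein, and AT5G45990, a putative crooked neck protein, were both far higher in the mutant seedlings, and the window was drawn around AT5G46070 because of that rise. Values of the neighbours in the same contrast are therefore given as a description, with no test of their own.

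RNA was taken from whole 7-day-old seedlings, grown without treatment on half-strength MS medium with 1% sucrose, and mRNA was selected by its poly(A) tail. The mutant group is the line labelled MAC3BQ77A/D81A-GFP (2 libraries, replicates 1 and 3), and the wild-type group is Col-0 (2 libraries, replicates 1 and 2). MAC3B, which attaches ubiquitin through a U-box domain, belongs to the MOS4-associated complex, a plant relative of the Prp19 complex that acts with the spliceosome. The promoter, the parent line and the number of independent lines behind the mutant were not given in the sources used here. Both mutant titles carry the same tag before the replicate number, which may name a single line, but the labels do not explain it. Traits particular to such a line could not be told apart from the fusion. No line with an unmutated MAC3B-GFP was among the samples, so the GFP fusion and the amino acid changes cannot be told apart. Nothing in the labels says that the libraries of a genotype came from separate cultures, so the errors below measure only the spread between these libraries, which may be technical.

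The libraries held 23936296 and 30105517 counts in the mutant and 23436163 and 24245300 counts in wild type. MAC3B had 1147 and 946 CPM (counts scaled to a common library size with edgeR's TMM factors) in the mutant libraries, against 156 and 162 CPM in the wild-type libraries, so the libraries carry more MAC3B message where the labels place the fusion. All 5 shoot markers and all 6 root markers examined were detected, and none passed the threshold between genotypes. Their summed levels were 19583 and 20285 CPM in the mutant and 22354 and 21243 CPM in wild type for shoot, and 90.0 and 108 CPM in the mutant and 96.4 and 91.2 CPM in wild type for root. The 5 flower and seed markers summed to 3.58 and 1.97 CPM in the mutant and 1.60 and 5.17 CPM in wild type. In whole seedlings, fewer cells of a type and less RNA per cell cannot be told apart. At these depths a gene with no count in a library could still have had up to 0.130 CPM, the limit that 3 counts set in the shallowest library on this scale, with counting error only.

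Arabidopsis genes lie close together, often with short spaces between the end of one gene and the start of the next, and unrelated genes commonly sit side by side. The window is such a stretch. It holds a cluster of immune receptor genes of the TIR-NBS-LRR class, which are intracellular proteins that recognise pathogen effectors, and FLS2, the cell-surface receptor for bacterial flagellin. It also holds APE2, which encodes the triose phosphate translocator that carries fixed carbon out of the chloroplast, and genes for plastid enzymes, transcription factors, transporters and ribosomal proteins.

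The sequences below frame the pair of genes at the centre of the window, AT5G46060 and AT5G46070, which both lie on the + strand in this order. They are the 250 bases before the annotated start of each gene, read from the RefSeq genome of TAIR10.1, in which all 156 neighbours have the same start and end as in the count file. They are shown because both genes were higher in the mutant. Capitals mark TATAAA, searched on both strands, where it reads TTTATA on the printed strand when it lies on the other one. Overlapping matches run together.
AT5G46060 upstream, chr5:18681076-18681325, + strand: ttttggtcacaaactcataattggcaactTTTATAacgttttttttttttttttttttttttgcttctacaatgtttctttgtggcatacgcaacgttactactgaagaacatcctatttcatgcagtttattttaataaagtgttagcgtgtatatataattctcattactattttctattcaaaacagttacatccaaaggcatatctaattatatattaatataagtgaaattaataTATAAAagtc
AT5G46070 upstream, chr5:18683069-18683318, + strand: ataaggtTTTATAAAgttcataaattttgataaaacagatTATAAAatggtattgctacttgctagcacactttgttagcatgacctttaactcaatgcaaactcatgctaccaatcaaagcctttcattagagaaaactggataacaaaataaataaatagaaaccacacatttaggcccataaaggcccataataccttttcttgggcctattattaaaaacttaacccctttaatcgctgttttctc

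In the stretch before AT5G46060 the motif lay 10 bases before the start on the gene's own strand and 221 bases before it on the other strand. Before AT5G46070 it lay 241 and 210 bases before the start on the gene's own strand and 243 bases before it on the other strand. Of 32546 upstream stretches of the same length, 46.1% held at least 1 match on either strand. Neither stretch overlaps an annotated gene, so the second one lies within the 610 bases between the end of AT5G46060 and the start of AT5G46070.

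Of the 156 neighbours, 136 were annotated as protein coding, 10 as lncRNA, 5 as tRNA, 2 as snRNA, 2 as snoRNA and 1 as another noncoding RNA. No count was found in any library for 37 of them, and 119 had at least 1 count. The test across all genes, edgeR's quasi-likelihood test with Benjamini-Hochberg adjustment at 0.05, kept 101 of them after its filter on low counts. The other 55 comprised the 37 at 0 and 18 with too few counts. Over all genes 617 of 20483 genes passed the threshold, which is 3.01%, with 345 higher (1.68%) and 272 lower (1.33%) in the mutant. Of the 101 tested neighbours 3 passed, or 2.97%, and in the rest of chromosome 5 it was 145 of 4669, or 3.11%. AT5G46060 and RPS6 were higher in the mutant and AT5G46420 was lower. The share among the neighbours lies near the background and is no result about them.

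AT5G46060 was the neighbour with the largest fold change. It encodes a protein of unknown function with a DUF599 domain, listed by RefSeq as a putative spastin, at chr5:18681326-18682708 on the + strand. It had 219 and 289 counts in the mutant libraries, against 36 and 33 counts in the wild-type libraries. In CPM these were 9.01 and 9.51 in the mutant and 1.56 and 1.38 in wild type, so both mutant libraries lay well above both wild-type libraries. The log2 fold change was 2.66 (SE 0.262), a fitted ratio of 6.30. Its size ranked 1 among the tested neighbours and 39 among all genes tested. Leaving out any 1 library kept the log2 fold change between 2.57 and 2.75.

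For scale, AT5G46070, which begins just after AT5G46060 on the same strand, had 1103 and 994 CPM in the mutant libraries and 75.7 and 71.9 CPM in the wild-type libraries, a log2 fold change of 3.83 (SE 0.0826). Per kilobase of exon, AT5G46060 had a mean level of 7.70 CPM in the mutant and 1.22 CPM in wild type, a difference of 6.48 CPM per kilobase. The same difference for AT5G46070 was 255 CPM per kilobase, so that of AT5G46060 came to 2.54% of it. In the authors' deposited table AT5G46060 has a log2 fold change of 2.66 (SE 0.336) but no adjusted p-value. Its mean normalised count there is 135, below 219.5, the lowest mean with an adjusted p-value in that table. The table lists 118 of the neighbours, of which 57 have an adjusted p-value. With that table's adjusted p-values, 2 of the 57 lie under 0.05, AT5G46420 and RPS6, against 510 of 13211 genes (3.86%) over the whole table.

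**Figure D1:**
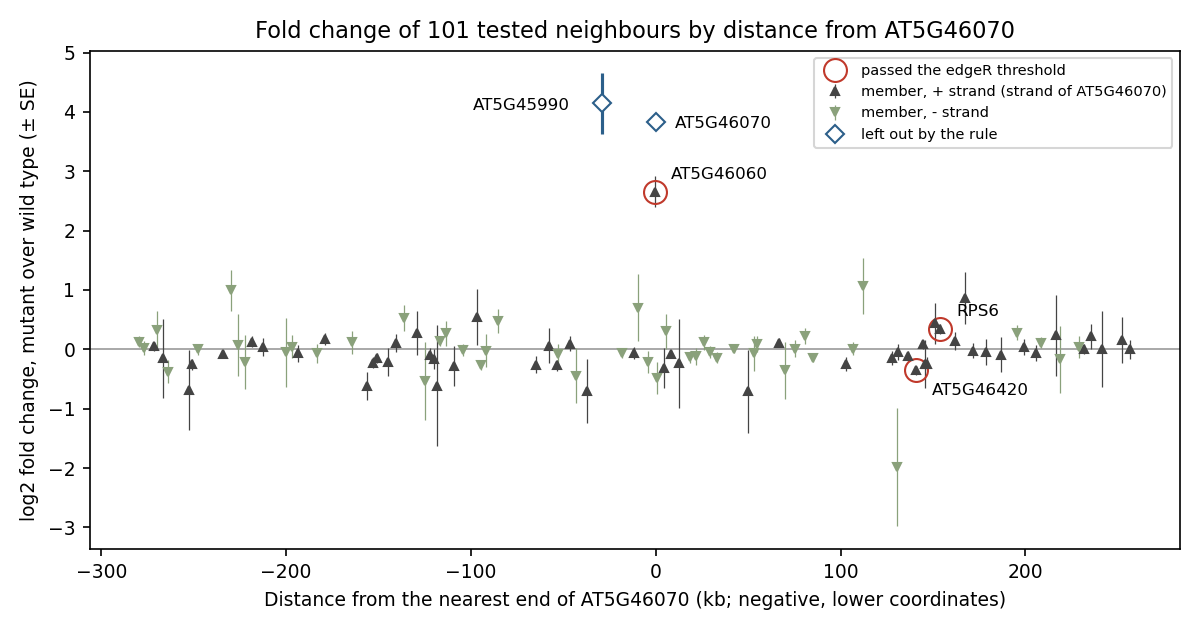
Log2 fold change (mutant over wild type, ± SE) of the 101 tested neighbours by distance in kb from the nearest end of AT5G46070, with triangles pointing up for the + strand and down for the - strand, rings for genes past the threshold and open diamonds for the 2 genes left out by the rule. AT5G46060, at 2.66, stands beside AT5G46070, and 87 of the 101 neighbours have a log2 fold change smaller than 0.5 in size.

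None of the other genes nearest to AT5G46070 on either side passed the threshold. On the lower side, PTR3 (AT5G46050), a peptide transporter gene on the - strand whose nearest end lies 4128 bases away, had 11.6 and 8.23 CPM in the mutant and 10.5 and 12.3 CPM in wild type. Its genotypes overlapped, with a log2 fold change of -0.21 (SE 0.189) that was -0.47 without mutant replicate 1 and 0.02 without mutant replicate 3. AT5G46040, of the major facilitator family, had 0.781 and 2.30 CPM in the mutant and 0.995 and 0.918 CPM in wild type. Only mutant replicate 3 stood above wild type there, and the log2 fold change of 0.71 (SE 0.565) became -0.29 without that library and 1.26 without mutant replicate 1. AT5G46030, annotated as a transcription elongation factor-like protein, had 37.2 and 35.8 CPM in the mutant and 38.0 and 38.1 CPM in wild type. AT5G46020, a phosphoprotein-like gene, had 89.8 and 101 CPM in the mutant and 101 and 98.2 CPM in wild type, while AT5G46025 between them had no count in any library. The log2 fold changes of AT5G46030 and AT5G46020 were both -0.06.

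On the higher side the nearest gene is AT5G46080, a protein kinase gene on the - strand, so that it and AT5G46070 point towards each other across 538 bases. It had 3.70 and 3.13 CPM in the mutant and 4.97 and 4.55 CPM in wild type, both mutant libraries being lower, with a log2 fold change of -0.48 (SE 0.273) that did not pass the threshold. AT5G46090, a putative transmembrane protein gene with a DUF679 domain, had 4.15 and 2.67 CPM in the mutant and 2.77 and 5.68 CPM in wild type, with full overlap and a log2 fold change of -0.32 that was 0.29 without wild-type replicate 2. AT5G46100, a pentatricopeptide repeat gene, had 3.95 and 4.05 CPM in the mutant and 2.90 and 3.59 CPM in wild type, a log2 fold change of 0.30 (SE 0.290) that did not pass either. AT5G46085 had 1 and 4 counts in the mutant and 2 and 3 counts in wild type and was not tested, and the tRNA gene AT5G46105 had no count. APE2 (AT5G46110), whose start lies 8413 bases past the end of AT5G46070 on the same strand, had 1306 and 1219 CPM in the mutant and 1304 and 1362 CPM in wild type. Its log2 fold change was -0.08 (SE 0.0682), and per kilobase of exon it was the most abundant neighbour, at a mean level of 548 CPM in the mutant and 579 CPM in wild type.

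AT5G45990, the other gene left out, lies on the lower side with its nearest end 29.2 kb away. It had 5.06 and 3.39 CPM in the mutant and 0.303 and 0.167 CPM in wild type (123 and 103 counts against 7 and 4). Both genes that flank it, the homeobox gene WOX8 (AT5G45980) and AT5G46000, had no count in any library of either genotype.

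**Figure D2:**
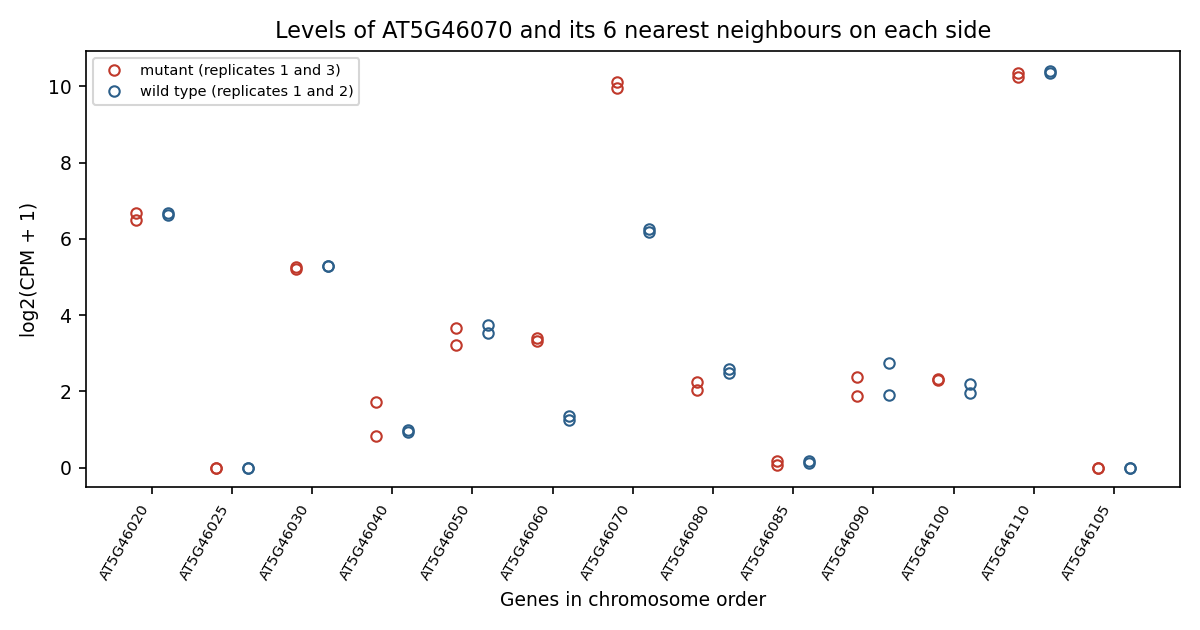
Level of AT5G46070 and of the 6 nearest neighbours on each side in every library, as log2(CPM + 1), with mutant libraries to the left of wild-type libraries at each gene and genes in chromosome order. AT5G46060 and AT5G46070 are the genes at which the 2 genotypes stand wide apart, and APE2 is as high in the mutant as in wild type.

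By distance, the neighbours within 50 kb of AT5G46070 numbered 30, of which 20 were tested and 1, AT5G46060, passed the threshold. From 50 to 100 kb there were 31 genes, 15 tested and 0 past the threshold. From 100 to 200 kb there were 55 genes and 40 tested, with 1 higher and 1 lower, RPS6 and AT5G46420, and beyond 200 kb there were 40 genes and 26 tested, with 0 past the threshold. With 3.01% of all genes tested past the threshold, so few calls are no result about distance. The median log2 fold changes in these classes, nearest first, were -0.10, -0.02, -0.05 and 0.02.

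By strand, 82 neighbours lie on the + strand, that of AT5G46070, and 74 on the - strand. All 3 genes past the threshold are on the + strand, of 55 tested there, against 0 of 46 tested on the - strand, a difference that was not tested. The median log2 fold change was -0.07 on the + strand and 0.00 on the - strand. The lower side of AT5G46070 holds 79 neighbours, 52 tested and 1 past the threshold, and the higher side 77 neighbours, 49 tested and 2 past it. Over all genes tested 3.01% passed, so counts this small are no result about strand or side.

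Over all 101 tested neighbours the median log2 fold change was -0.04, beside 0.00 over all genes tested and 0.00 over the rest of chromosome 5. Positive values numbered 45 and negative values 56. The median size of the log2 fold change was 0.145 for the neighbours and 0.150 for all genes tested. A size of at least 0.5 was reached by 14 of 101 neighbours, or 13.9%, beside 10.9% of all genes tested. The 2 mutant libraries lay wholly above or below the wild-type libraries for 41 neighbours, or 40.6%, beside 44.7% of all genes. In 18 neighbours the mutant was above (all genes 22.3%) and in 23 below (all genes 22.4%).

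The neighbours also showed how far libraries of 1 genotype differ. Among the 67 neighbours with a mean of at least 5 CPM, the median log2 difference in size was 0.146 between the mutant libraries and 0.129 between the wild-type libraries. The median difference between genotype means, each the mean of 2 libraries, was 0.112. The gap between genotypes exceeded the gap within both pairs at 24 of these genes, or 35.8%, beside 33.9% of all tested genes at that level.

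As a sum, the 156 neighbours came to 4395 and 4210 CPM in the mutant and 4406 and 4471 CPM in wild type, or 0.447% and 0.425% of all counts in the mutant and 0.435% and 0.442% in wild type. The 29 neighbours within 50 kb other than APE2 summed to 479 and 489 CPM in the mutant and 485 and 498 CPM in wild type. The neighbours, which leave out AT5G46070 and AT5G45990, thus had close to equal summed levels in both genotypes. Abundant genes such as APE2 make up much of the full sum, so the sums say little about genes at low levels.

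**Figure D3:**
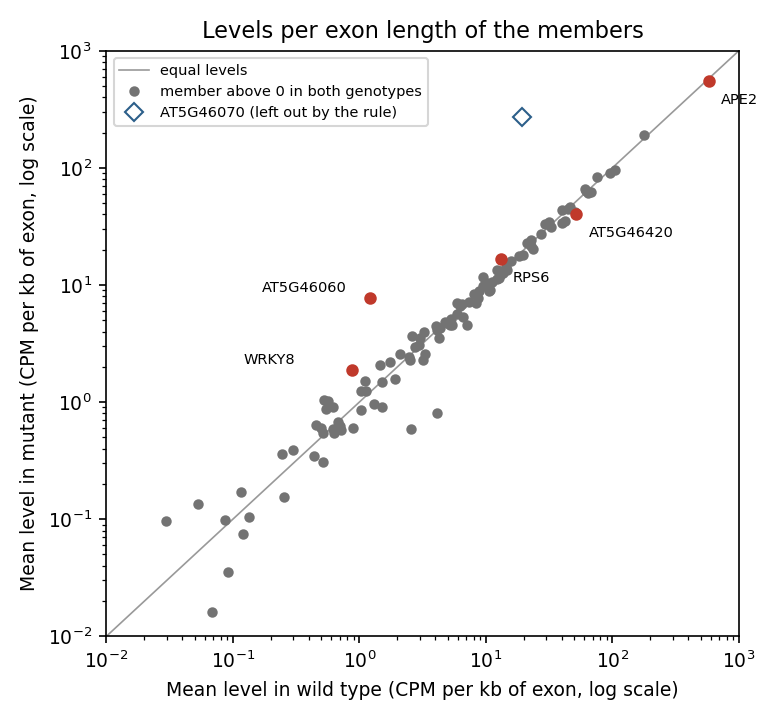
Mean level per kilobase of exon in the mutant (vertical, log scale) and in wild type (horizontal, log scale) of the 113 neighbours above 0 in both genotypes, with 5 named in red and AT5G46070 as an open diamond. Most points follow the line of equal levels over the whole range, and AT5G46060, at 7.70 in the mutant and 1.22 in wild type, lies above it on the side of AT5G46070.

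The list of immune receptors holds 8 genes in the window. All 8 were tested, and 1 passed the threshold, beside 3.01% of all genes tested. Their median log2 fold change was -0.03. A single call in so short a list is no result about the receptors. RPS6 (AT5G46470), a TIR-NBS-LRR gene named for resistance to Pseudomonas syringae, had 85.7 and 80.5 CPM in the mutant and 66.0 and 64.6 CPM in wild type, a log2 fold change of 0.35 (SE 0.0841). Both mutant libraries were higher by a modest margin, and the call was lost when either wild-type library was left out, at log2 fold changes of 0.36 without wild-type replicate 1 and 0.33 without wild-type replicate 2. The receptors next to RPS6 belong to the same family and could share reads with it. The nearest of them, AT5G46490, had 14.4 and 12.8 CPM in the mutant and 12.9 and 11.8 CPM in wild type, with overlap. AT5G46450, on the other side, had 36.6 and 33.1 CPM in the mutant and 43.6 and 38.7 CPM in wild type, and AT5G46510 had 22.0 and 22.7 CPM in the mutant and 22.0 and 23.4 CPM in wild type. FLS2 had 45.2 and 32.3 CPM in the mutant and 48.2 and 43.4 CPM in wild type. It did not pass (log2 fold change -0.25, SE 0.125), and its value rested on the mutant libraries. Without mutant replicate 1 it was -0.50, and without mutant replicate 3 it was -0.02.

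AT5G46420 was the single neighbour called lower. It encodes a RimM family protein, known in bacteria for a part in maturing 16S ribosomal RNA, and had 113 and 105 CPM in the mutant and 140 and 138 CPM in wild type. The log2 fold change was -0.35 (SE 0.0779), and it too was no longer called without wild-type replicate 1 (-0.34) or without wild-type replicate 2 (-0.36). Its first exon bases overlap the end of SSP4 (AT5G46410) on the same strand over 7.02% of its exon length, so some reads could belong to either gene. SSP4, a small phosphatase gene, had 56.6 and 54.5 CPM in the mutant and 58.9 and 61.3 CPM in wild type.

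**Figure D4:**
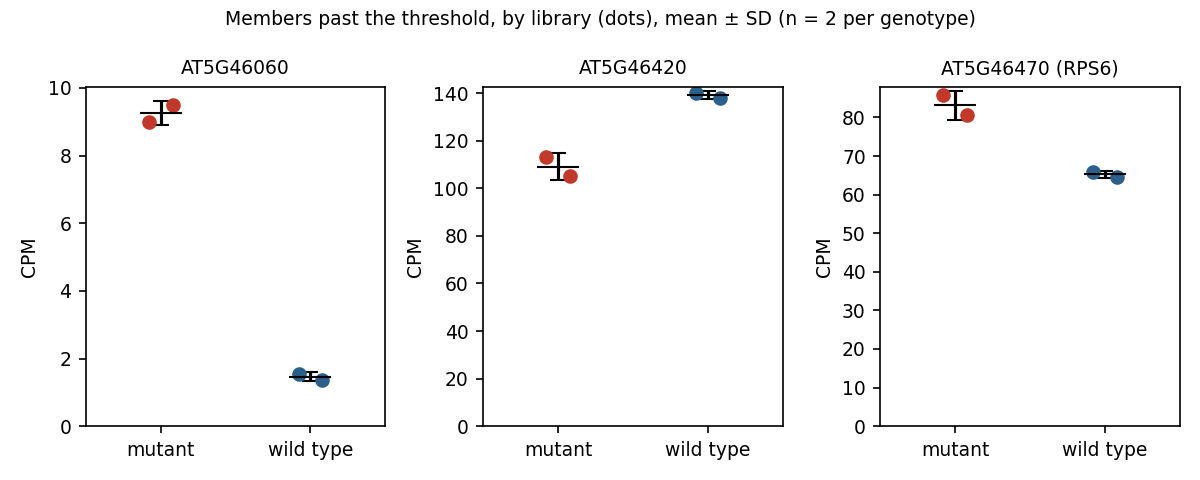
CPM of the 3 neighbours past the threshold in each library (dots, mutant left, wild type right), with the mean as a bar and the SD of n = 2 libraries as error bars, each axis starting at 0. AT5G46060 differs several-fold between genotypes, while AT5G46420 and RPS6 differ by a small part of their level.

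Of the other role lists none had a member past the threshold. With 3.01% of all genes tested past it, lists this short would hold few or none, so this is no result about the roles. The lists do not hold every gene of a role, and AT5G46420 is in none of them. Among the 11 protein kinase genes, which include FLS2, 9 were tested. The protein kinase family gene AT5G45430 was the most abundant of them by CPM, at 178 and 188 CPM in the mutant and 179 and 175 CPM in wild type. CIPK20, a kinase driven by calcium sensors, had 70.9 and 65.3 CPM in the mutant and 86.9 and 76.4 CPM in wild type. Its log2 fold change of -0.26 (SE 0.0896) did not pass, and was -0.32 without mutant replicate 1. It was -0.17 without wild-type replicate 1. MEE62, a leucine-rich repeat kinase gene, had 43.7 and 41.1 CPM in the mutant and 42.2 and 43.4 CPM in wild type.

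Of the 8 transcription factor genes 7 were tested. WRKY8, a gene of the WRKY family tied to defence and salt responses, had 3.66 and 1.48 CPM in the mutant and 1.17 and 1.25 CPM in wild type. Both mutant libraries were higher, but mutant replicate 1 set most of the log2 fold change of 1.07 (SE 0.472), which did not pass. It became 1.59 without mutant replicate 3 and was 0.29 without mutant replicate 1. The MYB-like gene maMYB had 27.6 and 26.4 CPM in the mutant and 24.1 and 28.9 CPM in wild type. RHA1, a heat shock factor gene, had 16.3 and 14.1 CPM in the mutant and 13.5 and 14.8 CPM in wild type, and bHLH071 had 18.0 and 13.3 CPM in the mutant and 17.3 and 14.0 CPM in wild type. In these 3 the genotypes overlapped.

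All 5 genes of the plastid list were tested, and their median log2 fold change was -0.14. KASI, a condensing enzyme of plastid fatty acid synthesis, had 204 and 188 CPM in the mutant and 220 and 213 CPM in wild type. CHLI2, a subunit of the magnesium chelatase of chlorophyll synthesis, had 68.8 and 60.9 CPM in the mutant and 74.2 and 81.6 CPM in wild type. Its log2 fold change of -0.27 (SE 0.0906) did not pass, and it was -0.36 without mutant replicate 1. It was -0.18 without mutant replicate 3. FKBP13, an immunophilin of the thylakoid lumen, had 56.0 and 54.7 CPM in the mutant and 63.0 and 59.3 CPM in wild type. AT5G46580, a pentatricopeptide repeat gene of the plastid, had 53.8 and 53.9 CPM in the mutant and 50.4 and 49.3 CPM in wild type. Of the 5 genes, both mutant libraries were thus lower in 3 (KASI, CHLI2 and FKBP13), higher in 1 (AT5G46580), and overlapped wild type in APE2. Over all genes tested, both mutant libraries were lower in 22.4% and higher in 22.3%. With 5 genes and none past the threshold, this is no result about plastid genes. The shoot marker sums given above were lower in both mutant libraries, but the single markers differed. RBCS1A and LHCB2.1, which with CAB2 make up most of the sums, were lower in both mutant libraries. CAB2 and STM overlapped wild type. AS1 was higher in both, at 38.1 and 35.4 CPM in the mutant and 35.2 and 34.0 CPM in wild type. The part of shoot content in these values was not tested.

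The 3 genes for DNA replication and chromatin were all tested. CUL4, the scaffold of a ubiquitin ligase, had 120 and 125 CPM in the mutant and 120 and 123 CPM in wild type. MCM3, a subunit of the replicative helicase, had 22.9 and 19.4 CPM in the mutant and 17.3 and 18.8 CPM in wild type, and GAS41, a YEATS domain chromatin protein gene, had 15.1 and 16.8 CPM in the mutant and 17.4 and 16.0 CPM in wild type. The 6 genes of the ribosome and RNA list, which leaves out AT5G46420, were all tested too. Their log2 fold changes lay between -0.06 and 0.14. The ribosomal L32e gene AT5G46430 had 127 and 140 CPM in the mutant and 125 and 126 CPM in wild type. LARP6a, a La-related RNA-binding protein gene, had 107 and 111 CPM in the mutant and 101 CPM in each wild-type library, and AT5G45775, a ribosomal L5P gene, had 77.3 and 87.9 CPM in the mutant and 77.3 and 73.0 CPM in wild type.

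Of the 7 genes in the membrane transport list 5 were tested, APE2, PTR3 and AT5G46040 among them. KAT1, the inward potassium channel of guard cells, had 21.3 and 18.7 CPM in the mutant and 17.2 and 20.4 CPM in wild type. All 5 genes in the trafficking and autophagy list were tested. The clathrin adaptor subunit gene AT5G46630 had 99.3 and 91.5 CPM in the mutant and 98.4 and 91.2 CPM in wild type. APG7, the activating enzyme of autophagy, had 16.6 and 16.7 CPM in the mutant and 18.4 and 21.3 CPM in wild type. Its log2 fold change of -0.26 (SE 0.136) did not pass.

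Among the 10 genes of tandem copies, 7 were tested. AT5G45520, of a leucine-rich repeat family, had 4.52 and 3.29 CPM in the mutant and 2.08 and 1.84 CPM in wild type. Both mutant libraries were higher, and the log2 fold change of 0.99 (SE 0.338) did not pass. It was 1.21 without mutant replicate 3. Its neighbouring copy AT5G45510 had 267 and 257 CPM in the mutant and 269 and 283 CPM in wild type, and reads could have been shared between the copies. The protease list took genes by the wording of their annotation and may miss some. Of its 4 genes 1 was tested, AT5G46390, with 22.5 and 21.0 CPM in the mutant and 23.4 and 24.7 CPM in wild type. Of the 20 genes in the noncoding list 15 had no count in any library and 1 was tested, AT5G45472, with 14 and 13 counts in the mutant and 17 and 21 counts in wild type. AT5G45472 overlaps AT5G45470 and AT5G45480 on the other strand, which were at 0, and the counting used no strand option, so reads of these genes cannot be told apart. In all, 21 neighbours share exon bases with another gene, among them FLS2, CHLI2, AT5G46030, AT5G46040 and AT5G46090. The largest fold change downward belonged to AT5G46395, an uncharacterised gene with 0 and 8 counts in the mutant and 12 and 15 counts in wild type, whose log2 fold change of -1.98 (SE 0.998) did not pass. It was -1.11 without mutant replicate 1, and without mutant replicate 3 the mutant has no count left, so that the fitted value, -6.78, is no measure of size.

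At the lower end of the window the genes just inside were AT5G45410, maMYB and AT5G45430, with log2 fold changes of 0.13, 0.03 and 0.05. Just outside it were RPA70C (0.25), CLPP4 (-0.17) and DUR3 (0.10). At the higher end the genes just inside were bHLH071 (0.00), AT5G46680 (0.15) and AT5G46670, which had 1 count in all. Just outside lay TRN2 (0.25), AT5G46710 (0.90) and AT5G46720 (-1.03). Of these AT5G46710, a PLATZ transcription factor gene, passed the threshold, with 7.90 and 7.08 CPM in the mutant and 4.15 and 3.88 CPM in wild type. It lies 264 kb from AT5G46070, beyond the window's edge, and 3.01% of all genes tested passed. AT5G46710 shares 35.5% of its exon length with TRN2 on the other strand. The counting used no strand option, so some reads could belong to either gene.

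The deposited files also score introns. The score table gives each intron of a gene a coverage score per column, and its columns name a genotype without matching the numbers of the libraries. It lists 445 introns in 89 of the neighbours. Of these 240, or 53.9%, are listed at 0 in all 4 columns, beside 47.9% of all introns in the table. Differences below are mutant minus wild type in the mean of log2(score + 1). For the 41 neighbour introns above 0 in every column the median difference was 0.08, beside 0.04 over all such introns. A difference of at least 4 in size was found in 10 neighbour introns, or 2.25%, beside 2.94% of all introns, 7 of them higher in the mutant and 3 lower. In limma's test across introns none passed at an adjusted p of 0.05, neither among the 205 neighbour introns with a score above 0 nor among all 41390, where 739 had an unadjusted p under 0.05, 1 of them in a neighbour. Without the first mutant column 40 of 184 neighbour introns passed, or 21.7%, beside 7356 of 38489 introns over the table, or 19.1%, with a lone mutant column assumed to vary like the wild-type columns.

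The score of the single intron of AT5G46060 (180 bases, chr5:18681707-18681886) was 0 and 1.01 in the mutant columns and 0.143 and 0.417 in the wild-type columns, a difference of 0.16. These scores are low in all columns, and no comparison of genotypes is drawn from them. AT5G46070, whose level per kilobase is far higher, had 10 of its 13 introns at a difference of at least 4 and none at 0 throughout. The scores are scaled by 1 value per column and not by the level of the gene. AT5G46070 itself had a log2 fold change of 3.83 in counts. The part of that rise in its intron differences was not tested. The highest-scored intron of AT5G46070 had 3558 and 2769 in the mutant columns and 23.4 and 69.5 in the wild-type columns. It was the only 1 of the 13 above 0 in all 4 columns. At the others the size of a difference depends on the 1 added to each score.

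A pair of introns of PRP39-2 (AT5G46400), a relative of the yeast U1 snRNP splicing factor Prp39, were among the 7 higher ones. Their scores were 27.8 and 118 in the mutant columns for the first and 61.0 and 33.2 for the second, while both wild-type columns were at 0 for each. The count of PRP39-2 barely differed, with a log2 fold change of -0.05. A pair of introns of the immune receptor gene AT5G46450 were among the 3 lower ones, with scores of 0 and 0 in the mutant against 23.2 and 38.0 in wild type for one, and of 0.615 and 0 in the mutant against 50.3 and 50.0 in wild type for the other. MOB1-like (AT5G45550) had 1 intron in each direction. The remaining 4 higher introns were 1 each in APG7, AT5G46020, DELTA-OAT and BSK2. Each of these 10 introns was listed at 0 in at least 1 column. Scores multiplied by intron length come in whole steps of 12.7 and 10.1 in the mutant columns and 12.9 and 12.5 in the wild-type columns. If a step is 1 base of 1 read, a score of that size means coverage 1 read deep. Most of the scores given here would then reflect low coverage.

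**Figure D5:**
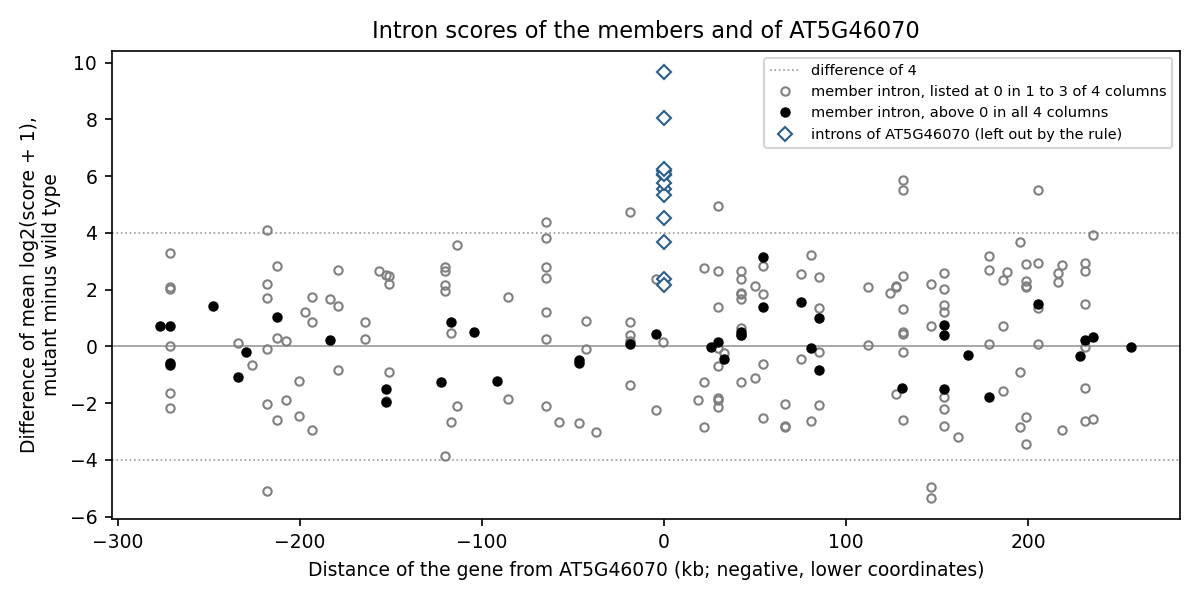
Difference in mean log2(score + 1), mutant minus wild type, of each neighbour intron with a score above 0 in at least 1 column, by distance of its gene from AT5G46070 in kb, with filled dots above 0 in all 4 columns, open dots at 0 in some, and open diamonds for the introns of AT5G46070. Neighbour introns scatter on both sides of 0 at every distance, and 10 of the 13 introns of AT5G46070 lie above the dotted line at 4. Only 1 of those 13 was above 0 in all 4 columns. The scores are not corrected for the level of the gene.

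The authors' deposited table of retained introns, made with rMATS, holds 20 events in 15 of the neighbours. It lists 3 of them at a false discovery rate under 0.05, or 15.0%, beside 16.5% of its 4690 events. The table numbers its groups and does not say which genotype each is, so the sign of a difference cannot be read as mutant or wild type, and none of the 20 introns is in the score table. The 3 introns are printed here from the RefSeq genome, on the strand of their gene, because they carry the events the authors' table lists below that rate. Capitals mark the first and last 2 bases, GT and AG in all 3, the bases at which the spliceosome cuts most introns.
AT5G45920, chr5:18624414-18624514, + strand: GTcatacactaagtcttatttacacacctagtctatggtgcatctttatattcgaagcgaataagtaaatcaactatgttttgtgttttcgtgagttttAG
MCM3, chr5:18770269-18770358, - strand: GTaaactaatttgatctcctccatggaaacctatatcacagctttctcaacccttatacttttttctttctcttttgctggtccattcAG
MCM3, chr5:18770562-18770653, - strand: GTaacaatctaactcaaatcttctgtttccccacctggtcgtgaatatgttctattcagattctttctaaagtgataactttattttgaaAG

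The intron of AT5G45920, an SGNH esterase gene, is 101 bases long and has an inclusion difference of -0.262 between the numbered groups in the authors' deposited table, with a false discovery rate of 0.00152. The MCM3 intron of 90 bases has an inclusion difference of -0.093 in the authors' deposited table, with a false discovery rate of 0.0243. The MCM3 intron of 92 bases has -0.18 in the authors' deposited table, with a false discovery rate of 1.3e-06. Both MCM3 introns thus have the same sign, and the counts of neither gene passed the threshold, with log2 fold changes of 0.22 for MCM3 and 0.06 for AT5G45920.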

How the data were processed

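The authors deposited raw counts of fragments per gene, made with featureCounts (2.0.1) over exons of the Ensembl TAIR10 release 49 annotation with no strand option, per the file headers. HISAT2 (2.2.0), STAR (2.7.9a) and DESeq2 (1.30.1) are named in the submitters' processing notes. The authors' deposited DESeq2 table gives a mean signal (normalised count), log2 fold changes, a Wald score and p-values. The deposited intron scores are a coverage signal with log2 means per genotype, and how they were made was not given in the sources used here. The deposited rMATS table gives p-values and an inclusion score, and its 2 numbered groups are unnamed. The deposited tables hold 18 further columns of values that were not used.

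The members and lists were chosen with earlier results of these data known. Counts were fitted over all genes with edgeR 4.0.16 (TMM, filterByExpr, genotype only, quasi-likelihood test, Benjamini-Hochberg at 0.05), checked on simulated data, in R 4.3.3. CPM are counts divided by the TMM-scaled library size. Introns were tested with limma 3.58.1 on log2(score + 1), after a check that the scores, multiplied by the length of their introns, come in whole steps of a value particular to each column. Distance runs between nearest ends. Genes named are those past the threshold, the 6 nearest on each side, the 8 most abundant per kilobase, those wholly apart with a log2 fold change of at least 1, those at the window's ends, and up to 4 per role list by mean CPM. Chosen after their values were seen were AT5G46490, AT5G46580, AT5G45470, AT5G45480, WOX8, AT5G46000, SSP4, AT5G45920, PRP39-2, DELTA-OAT and BSK2. The replicate libraries differed by more than sampling noise, with a chi-square per gene of 10.5 for the mutant pair and 4.44 for the wild-type pair. Alternatives were RLE factors (the size factors of DESeq2) and library totals, other filters, DESeq2 1.42.0, each library left out, genes sharing no exon base, midpoint distances, and another pseudocount and filter for introns.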

Additional observations from a re-analysis of the deposited data

How the results depend on the processing

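No paired analysis was made, because the labels name no pairing of libraries across genotypes. Replicate numbers here are those of the titles, by which the genotypes share only number 1. The sample descriptions call the same wild-type libraries WT2 and WT3. The count of genes past the threshold, 617, was 622 with RLE factors, 701 with library totals, 624 with at least 1 CPM in 2 libraries, 510 with DESeq2 and 1090 with no filter on low counts, and ranged from 135 to 1848 with 1 library left out. With library totals 507 were higher and 194 lower in the mutant, beside 345 and 272. The count of neighbours past the threshold stayed at 3 with RLE factors, library totals and both filters, was 2 with DESeq2, which gave AT5G46060 no adjusted p, and 2 among genes sharing no exon base, and ranged from 1 to 8 with 1 library left out. The neighbours' median log2 fold change, -0.041, was -0.0047 with library totals and -0.0077 among genes sharing no exon base, and ranged from -0.076 to 0.026 with 1 library left out. With midpoint distances the genes past the threshold in each distance class numbered 1, 0, 2 and 0, as with nearest ends, although some genes moved between classes. Neighbour introns past the threshold ranged from 0 to 40 with 1 column left out, and were 0 with a pseudocount of 0.1 and with introns above 0 in every column. Among the 46 named genes tested, 30 values over 18 uncalled genes changed sign under an alternative. None of the 3 called genes changed sign. The causes of these shifts were not tested. With 2 libraries per genotype, differences near the spread between libraries were not detectable.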
